A study of Solanum lycopersicum with 9 samples.

Results

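The comparison described here set 3 libraries of control CK2 against 3 libraries of control CK1, 6 of the 9 RNA-Seq libraries analysed in tomato (Solanum lycopersicum). The libraries of each set were taken by their names and labels. The labels give both sets as buds from greenhouse plants and name no transgene in either. The cultivar label is "monomaker" for CK1 and "Compound raceme" for CK2. The other 3 libraries, OE1, OE30 and OE9, carry the tissue label flower and are given only beside the control values. The methods of the study describe axillary buds of the cultivar Ailsa Craig and 1 wild-type set, so they do not say what distinguishes CK1 from CK2. For RNA-Seq they state biological replicates of several plants each, at a seedling stage, for wild type and WRKY-B-GFP. They do not say which control set that covers. The labels do not state the kind of bud, its stage, or whether the libraries came from separate plants. The p-values below therefore measure only the spread between these libraries, and cultivar, bud stage, plant and harvest cannot be told apart as sources of a difference between the sets.

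A tomato bud can be vegetative, with a shoot meristem and young leaves, or floral, with sepals, petals, stamens and carpels. The identity of floral organs is set by MADS-box transcription factors, which remain active while the organs grow. Inside the anther, the tapetum is the cell layer that feeds developing pollen, and it breaks down before pollen is mature. Pollen itself carries an RNA population of its own. Petals of tomato turn yellow as they fill with carotenoids, and the sepals and young carpels are green and photosynthetic. Axillary buds are formed and held back or released by a separate group of regulators.

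Expression was given as FPKM, the fragments of a gene model scaled to its length and to the mapped fragments of the library. The table held 33989 gene models at 27028 loci, and 6513 loci had 2 models. An ID with 1 suffix, such as Solyc02g078380.3, and an ID with 2 suffixes, such as Solyc02g078380.3.1, at the same locus are treated as 2 models, between which the authors' counting could split reads. Between 21480 and 21793 gene models reached 1 FPKM in a control library. Read totals are not known. The Pearson correlation of log2 expression across gene models was 0.976 to 0.980 within a set and 0.669 to 0.698 between the sets, where genes are not independent replicates. CK1_3 was the CK1 library closest to CK2, at 0.690 to 0.698 against 0.669 to 0.679 for the other two.

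CK1_3 held low values of the gene models that were most abundant in CK2. Of the 104 models that averaged at least 100 FPKM in CK2 and did not pass 0.3 FPKM in CK1_1 or CK1_2, 97 were above 0 in CK1_3. Their value there had a median of 0.144% of the CK2 mean (interquartile range 0.106 to 0.188%). The highest such value was 3.08 FPKM. The same count, taken with CK1_1 or CK1_2 in the place of CK1_3, gave 14 of 37 and 12 of 37 models above 0. Above 0.3 FPKM it gave 1 model of 37 in CK1_1 and 1 of 37 in CK1_2, against 68 of 104 in CK1_3. In CK2_1, CK2_2 and CK2_3, gene models abundant in CK1 gave 4 of 18, 11 of 19 and 9 of 19 above 0. Those above 0.3 FPKM were 0 of 18, 1 of 19 and 1 of 19. This count was chosen after the values were seen. The counts of large rises, the largest rises and the counts of models absent from CK1 are also given without CK1_3, and the source of these traces was not tested.

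**Figure D1:**
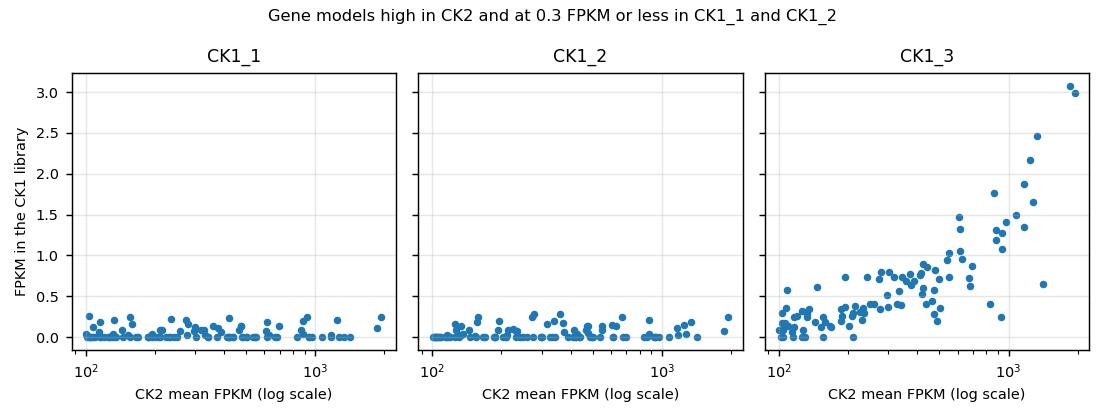
FPKM in CK1_1, CK1_2 and CK1_3 (1 panel each) against the CK2 mean on a log axis, for the 104 gene models that averaged at least 100 FPKM in CK2 and were chosen for 0.3 FPKM or less in CK1_1 and CK1_2. In CK1_3, 97 points lie above 0, and the points are higher where the CK2 mean is higher, up to 3.08 FPKM.

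The buds of the 2 sets differed widely. Of 25268 gene models tested, 6826 (27.0%) passed a fold change of 2 and an adjusted p under 0.05 (limma-trend on log2(FPKM + 0.1), Benjamini-Hochberg). Of these, 3283 (13.0% of those tested) were higher and 3543 (14.0%) lower in CK2. The ranges of the 2 sets did not overlap in 18701 gene models (74.0%). The median log2 fold change over all tested models was −0.23. After each library was scaled by its median ratio, the median was −0.01 and the split became 3862 higher and 2610 lower, so 59.7% of calls were higher where 48.1% were without scaling. Where scaling changed the counts of a marker list, both are given below.

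The largest differences lay mostly on the CK2 side. At a log2 fold change of 4 or more in size, 1074 models were higher and 441 lower in CK2. At 8 or more, 216 were higher and 48 lower, and at 10 or more, 77 were higher and 20 lower. After median-ratio scaling the counts were 1124 and 416 at 4, 233 and 46 at 8, and 83 and 20 at 10. Without CK1_3 they were 1083 and 441 at 4, 233 and 48 at 8, and 94 and 20 at 10. The models called higher in CK2 made up 3.54 to 3.59% of the summed FPKM of a CK1 library, 25.7 to 26.2% of a CK2 library and 3.21 to 3.43% of an OE library. The models called lower made up 14.8 to 14.9% in CK1 and 3.65 to 3.74% in CK2 and 7.995 to 9.24% in OE. These shares rest on the same values as the calls and describe how abundant the called models were. By level, 20.0% of models whose higher set averaged at least 100 FPKM were higher in CK2, against 9.41% of those under 1 FPKM. Lower calls made up 12.6% of the former and 15.5% of the latter, and 17.5% of models at 1 to 10 FPKM.

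**Figure D2:**
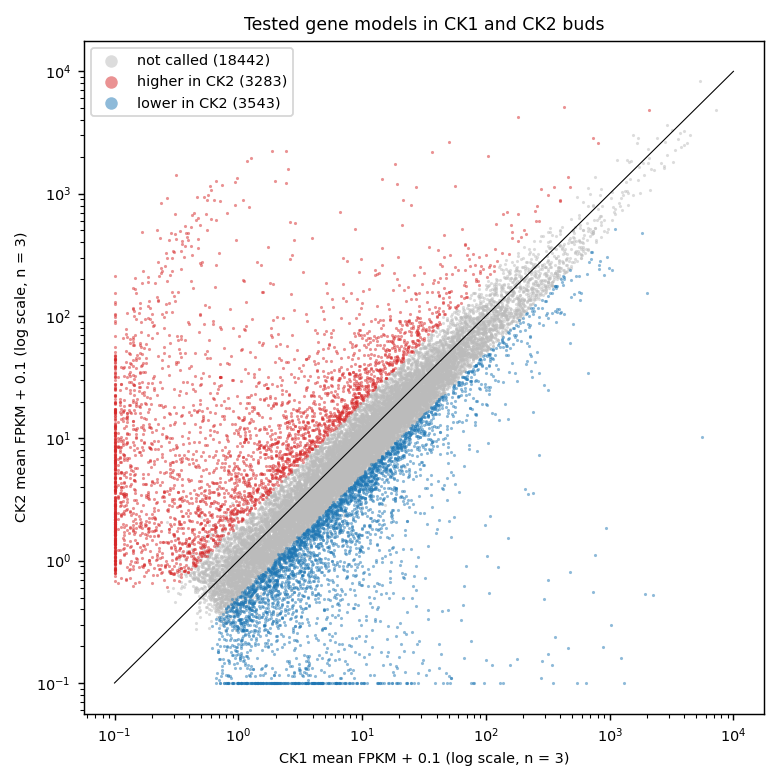
Mean FPKM of every tested gene model in CK1 (x axis) and CK2 (y axis), on log axes after adding 0.1 FPKM. Red points are the 3283 models called higher and blue points the 3543 called lower in CK2; the red points spread farthest from the diagonal at high CK2 levels.

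Organ and developmental markers were taken from 14 lists of 103 loci, matched by locus ID. Membership of a list came from general knowledge of tomato genes and not from the files, which give an ID no name, and it was not checked against an annotation. The lists were fixed with earlier results of these data known, so their called shares are not independent of the data. Of the 103 loci, 99 were found, with 124 gene models. Of these, 104 models passed the filter on low values and 20 did not. Among the 104, 13 were higher in CK2 (12.5%), 21 lower (20.2%) and 70 not called. The called share was 32.7% in the lists and 27.0% over all tested models. After median-ratio scaling, the counts of higher and lower models were the same in 9 of the 14 lists, and the 5 others are given with both counts. In a bulk sample, fewer cells of a type and less RNA per cell cannot be told apart.

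The floral organ identity list was high in both sets. Its 11 models summed to 976 to 995 FPKM in the CK1 libraries, 1282 to 1331 in CK2 and 406 to 447 in OE. Of its 10 tested models, none was higher, 1 was lower and 9 were not called, beside 27.0% called over all tested models. The median log2 fold change of the list was 0.04, against −0.23 over all tested models. The most abundant model in CK2, Solyc04g081000.3, read 228, 254 and 254 FPKM in CK1 and 403, 415 and 410 in CK2. The CK2 values all lay above those of CK1, and the log2 fold change of 0.74 (SE 0.05, limma-trend adjusted p = 1.26e-05) stayed under the 2-fold threshold. Solyc08g067230.3 was at 227, 224 and 221 FPKM in CK1 and at 359, 335 and 359 in CK2, and Solyc06g059970.3.1 at 246, 252 and 245 against 332, 296 and 298. Solyc02g071730.3 went the other way without a call, from 94.1, 96.4 and 94.0 FPKM to 69.7, 71.6 and 74.3. The lower model was Solyc06g064840.3, at 2.53, 3.17 and 2.09 FPKM in CK1 and 0.68, 0.73 and 0.57 in CK2 (log2 fold change −1.81, SE 0.20, adjusted p = 0.000169). The second model of that locus, Solyc06g064840.3.1, was not called, at 4.69 to 4.89 FPKM in CK1 and 4.06 to 4.98 in CK2.

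The list of SEPALLATA and of sepal or pedicel MADS-box genes had no call among 10 tested models, beside 27.0% over all tested models. Its sums were 483 to 493 FPKM in CK1 and 559 to 604 in CK2. Both models of Solyc02g089200 read higher in every CK2 library. Solyc02g089200.3 was at 89.0, 96.4 and 113 FPKM in CK1 and 149, 154 and 142 in CK2. Solyc05g015750.3 was nearly level, at 123, 120 and 123 against 128, 118 and 127 FPKM. Solyc05g056620.2 was at 47.8, 48.3 and 45.7 FPKM in CK1 and 33.7, 33.7 and 32.8 in CK2, and stood at 137, 154 and 138 in the OE libraries.

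The axillary bud list was low in both sets and lower in CK2. Its 10 models summed to 13.2 to 14.02 FPKM in CK1, 3.18 to 3.88 in CK2 and 28.4 to 38.8 in OE. Only 4 models passed the filter on low values, and 3 of them were called, all lower, beside 14.0% lower over all tested models. Solyc05g007870.2 read 5.41, 6.36 and 5.87 FPKM in CK1 and 0.71, 0.71 and 0.82 in CK2 (log2 fold change −2.82, SE 0.13, adjusted p = 2.05e-06). Solyc07g062840.3 read 4.67, 4.28 and 4.60 against 1.09, 1.51 and 1.15 (log2 fold change −1.79). Solyc07g066250.1 was near 1 FPKM in CK1, at 1.03, 0.98 and 0.93, and at 0.10, 0.10 and 0.20 in CK2. It passed the filter only through CK1, which fixed its direction in advance, so its call adds no support. No value of the list passed 6.36 FPKM in a control library, while the floral organ list reached 415 FPKM. The label gives only bud, and the floral organ identity lists were abundant in both sets, so the buds are called CK1 and CK2 buds here and not axillary buds.

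The largest rise in the marker lists was in the anther, tapetum and pollen list, whose members read high in different sets. Solyc10g007270.3 read 0.25, 0.25 and 2.99 FPKM in CK1 and 1954, 2033 and 1833 in CK2 (log2 fold change 11.39, SE 0.81, adjusted p = 1.85e-05). The CK1 value of 2.99 was that of CK1_3, and without this library the log2 fold change was 12.44, a fold more than 2 times as large. In the OE libraries the model was at 0.09 FPKM each. Solyc01g081100.2 went down, from 17.9, 18.0 and 16.9 FPKM in CK1 to 0.07, 0 and 0 in CK2 (log2 fold change −7.21, SE 0.24, adjusted p = 4.60e-07). Solyc02g079810.2.1 was at 1.39, 1.03 and 1.43 FPKM in CK1 and listed at 0 in all CK2 libraries. The sum of the list, 19.3 to 21.3 FPKM in CK1 and 1833 to 2033 in CK2, thus came from different members in the 2 sets. Solyc01g081100.2 and Solyc02g079810.2.1 passed the filter on low values only through CK1, and Solyc10g007270.3 reached 0.5 FPKM in CK1 only in CK1_3. Each needed 1 set to pass the filter, which bore on its direction in advance, so these calls add no support. With 3 loci the list does not describe the anther as a whole.

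The carotenoid and petal colour list was the list with most models higher in CK2. Of 15 tested models at 10 loci, 8 were higher, none lower and 7 not called, and 9 were higher after median-ratio scaling. Over all tested models 13.0% were higher, and 15.3% after scaling. Solyc03g031860, Solyc01g098110 and Solyc03g123760 each had both models among the 8, so the 8 are not separate loci. The sum rose from 260 to 266 FPKM in CK1 to 685 to 702 in CK2. Solyc03g007960.3 had the largest change, from 13.7, 12.5 and 11.8 FPKM to 213, 220 and 218 (log2 fold change 4.09, SE 0.06, adjusted p = 1.65e-08). It was at 36.9, 24.9 and 18.1 FPKM in the OE libraries OE1, OE30 and OE9. Solyc03g031860.3 read 17.1, 15.9 and 17.1 FPKM in CK1 and 106, 92.9 and 102 in CK2 (log2 fold change 2.57, SE 0.06), and Solyc03g031860.3.1 rose by a log2 of 2.76 (SE 0.09). Solyc01g098110.3.1 read 5.90, 6.38 and 6.23 FPKM in CK1 and 52.3, 47.8 and 49.2 in CK2 (log2 fold change 2.99, SE 0.05). Solyc03g123760.3 read 15.9, 15.3 and 16.4 against 63.9, 61.9 and 61.9 FPKM (log2 fold change 1.98, SE 0.04), and Solyc06g074240.2.1 read 2.79, 2.71 and 2.37 against 10.1, 9.81 and 9.52. The other 2 called models were at the same loci, Solyc01g098110.3 (log2 fold change 3.15, SE 0.40) and Solyc03g123760.3.1 (1.34, SE 0.27). In all of these the sets did not overlap, which also held for 74.0% of all tested models. Solyc01g098110.3 reached 0.5 FPKM in CK1 only in CK1_1, so it needed CK2 to pass the filter and its call adds no support.

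The 7 other tested models of the carotenoid list were not called, and 5 of them had a higher mean in CK2. Solyc06g036260.3 was the most abundant member in CK1, at 100, 106 and 104 FPKM, and read 84.6, 89.4 and 80.1 in CK2. Solyc01g097810.3 was at 47.0, 46.5 and 48.7 FPKM in CK1 and 59.0, 59.2 and 59.6 in CK2. Solyc12g008980.2.1 read lower in CK2, at 8.78, 7.81 and 8.06 FPKM against 12.3, 12.1 and 13.0. The 4 others had log2 fold changes of 0.80 (Solyc02g081330.4.1, called higher after scaling), 0.73 (Solyc02g081330.4), 0.69 (Solyc10g081650.2) and 0.41 (Solyc10g081650.2.1).

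**Figure D3:**
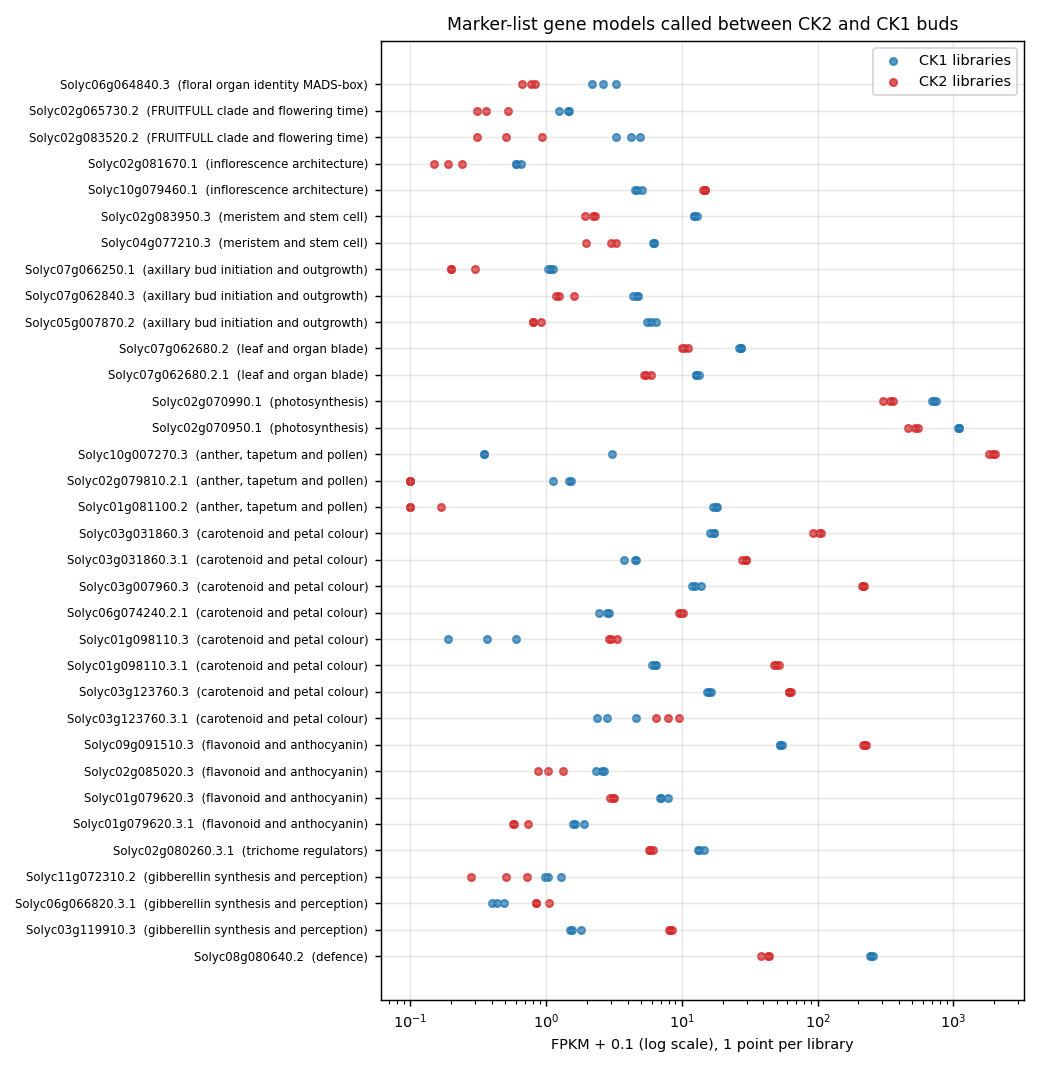
Called gene models of the marker lists in each library of CK1 and CK2, on a log axis. The axis is FPKM + 0.1, each point is 1 library (CK1 blue, CK2 red), and the 34 called models are listed by marker list. The widest gaps are at Solyc10g007270.3, where CK2 is higher, and Solyc01g081100.2, where CK2 is lower.

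The called share of the meristem and inflorescence lists, 2 of 7 tested models each, was close to the 27.0% of all tested models. In the meristem list, 2 of 7 tested models were lower and none higher, and 1 was lower after scaling. Solyc02g083950.3 read 12.3, 12.9 and 12.3 FPKM in CK1 and 2.13, 1.84 and 2.21 in CK2 (log2 fold change −2.54, SE 0.09, adjusted p = 7.49e-07). Solyc04g077210.3, at 6.16, 6.13 and 6.08 against 3.16, 1.89 and 2.91 FPKM (log2 fold change −1.21), was not called after scaling, with a pseudocount of 1 or without CK2_2. In the inflorescence list, 1 of 7 tested models was higher and 1 lower, and after scaling 1 was higher and none lower. Solyc10g079460.1 read 4.98, 4.42 and 4.56 FPKM in CK1 and 14.7, 14.2 and 14.7 in CK2 (log2 fold change 1.62, SE 0.07, adjusted p = 1.36e-06). The lower model, Solyc02g081670.1, was at 0.50 to 0.55 FPKM in CK1 and 0.05 to 0.14 in CK2, and fell under the filter on low values after scaling. It passed that filter only through CK1, which fixed its direction in advance, so its call adds no support. The list of the FRUITFULL clade and flowering time had 2 lower models of 7. Solyc02g083520.2 read 3.18, 4.82 and 4.11 FPKM in CK1 and 0.21, 0.41 and 0.83 in CK2. Solyc02g065730.2 read 1.35, 1.39 and 1.14 against 0.43, 0.21 and 0.26 FPKM. Solyc02g065730.2 passed the filter only through CK1, and Solyc02g083520.2 reached 0.5 FPKM in CK2 only in CK2_3. Both needed CK1 to pass, so these calls add no support.

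Photosynthesis genes were abundant in both sets, and most read lower in CK2 without reaching 2-fold. The 11 tested models had a median log2 fold change of −0.55, and −0.33 after scaling, against −0.23 and −0.01 over all tested models. Called were 2 of the 11, against 27.0% of all tested models, and 10 of the 11 had a lower mean in CK2. The exception was Solyc02g071000.1, at 647, 698 and 665 FPKM in CK1 and 726, 829 and 811 in CK2. The 2 models called lower, neither of them after scaling, were Solyc02g070990.1, at 747, 716 and 698 against 305, 360 and 342 FPKM (log2 fold change −1.10, SE 0.06, adjusted p = 7.04e-06), and Solyc02g070950.1 (log2 fold change −1.11). They were also not called with all 9 libraries in 1 fit. Reads of similar neighbouring genes could have been split by the counting. In the leaf and organ blade list, 2 of 5 tested models were lower and none higher, beside 14.0% lower over all tested models. The 2 were both models of Solyc07g062680, so they are not separate loci. The 3 others were not called. Mean FPKM in CK1 and CK2 was 328 and 213 for Solyc04g076850.3.1, the most abundant member. It was 83.2 and 53.4 for Solyc01g091010.3, and 28.6 and 31.4 for Solyc11g071810.2. Solyc07g062680.2 read 27.4, 27.3 and 26.2 FPKM in CK1 and 9.93, 10.3 and 11.1 in CK2 (log2 fold change −1.36, SE 0.06, adjusted p = 1.18e-06), and was not called with all 9 libraries in 1 fit (adjusted p = 0.0578).

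The flavonoid, defence and trichome lists are given beside the 27.0% called over all tested models, 13.0% higher and 14.0% lower. In the flavonoid and anthocyanin list, 1 of 7 tested models was higher and 3 lower. The higher one, Solyc09g091510.3, read 53.3, 52.6 and 54.8 FPKM in CK1 and 216, 227 and 224 in CK2 (log2 fold change 2.05, SE 0.03, adjusted p = 2.90e-08), while the OE libraries were at 43.5, 6.21 and 6.11. The lower ones were both models of Solyc01g079620 and Solyc02g085020.3, none of them above 7.84 FPKM. Solyc01g079620.3.1 reached 0.5 FPKM in CK2 only in CK2_2, so it needed CK1 to pass the filter and its call adds no support. In the defence list, 1 of 6 was lower, Solyc08g080640.2, at 257, 243 and 246 against 38.4, 43.8 and 43.1 FPKM (log2 fold change −2.57, SE 0.06, adjusted p = 8.27e-08). Solyc01g106620.2 of the same list was not called. It was at 21.6, 22.0 and 22.9 FPKM in CK1 and at 8.24, 0 and 8.93 in CK2, with CK2_2 apart from the others. Without CK2_2 it was called, at a log2 fold change of −1.36 (limma-trend adjusted p = 1.93e-05). In the trichome list, 1 of 3 was lower, Solyc02g080260.3.1, at 13.2, 13.4 and 14.4 against 5.70, 6.03 and 5.66 FPKM (log2 fold change −1.22).

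Of the 9 tested models of the gibberellin list, 2 were higher and 1 lower, beside 27.0% called over all tested models. After scaling, 3 were higher and 1 lower. Solyc03g119910.3 read 1.70, 1.46 and 1.41 FPKM in CK1 and 7.94, 8.12 and 8.44 in CK2 (log2 fold change 2.35, SE 0.11, adjusted p = 1.90e-06). The other 2 called members were low. Solyc06g066820.3.1 (0.34, 0.30 and 0.39 against 0.75, 0.95 and 0.74 FPKM, log2 fold change 1.04) lost the call without CK1_2 (0.97) or without CK2_2 (0.94). Solyc11g072310.2 (log2 fold change −1.22) lost it without CK1_1 (−1.09), CK1_3 (−1.26) or CK2_2 (−0.84). Solyc06g066820.3.1 passed the filter on low values only through CK2, and Solyc11g072310.2 reached 0.5 FPKM in CK2 only in CK2_3. Each needed 1 set to pass, so these calls add no support. Solyc11g011260.1, the most abundant member, was not called, at 118, 121 and 122 against 75.1, 79.3 and 75.4 FPKM. WRKY-B, Solyc02g071130.3, the transcription factor overexpressed in the OE plants, was low in both control sets, at 0.87, 0.71 and 0.55 FPKM in CK1 and 0.40, 0.40 and 0.08 in CK2. Its log2 fold change of −1.17 (SE 0.44, limma-trend adjusted p = 0.0510) did not pass the threshold. It passed without CK2_1 (adjusted p = 0.0445) or without CK2_2 (adjusted p = 0.0452). WRKY-B passed the filter on low values only through CK1, which fixed its direction in advance.

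The gene models with the largest changes were close to 0 in one set and among the abundant transcripts of the other. They have no annotation in the sources used here and are given by ID. The largest rise was at Solyc06g084180.3.1 (SL3.0 chromosome 6, 49380082 to 49426793, minus strand), which read 0, 0 and 0.65 FPKM in CK1 and 1475, 1391 and 1388 in CK2 (log2 fold change 12.82, SE 0.75, adjusted p = 6.88e-06). Without CK1_3 it is listed at 0 in CK1, so no fold is given. Solyc01g005510.3 was the most abundant of the 10 models with the largest rise, at 0.11, 0.07 and 3.08 FPKM in CK1 and 1904, 1815 and 1854 in CK2. Solyc02g089570.3 read as high in CK1_1 as in CK1_3, with 0.24, 0 and 0.25 FPKM in CK1 and 847, 927 and 994 in CK2. The 10 had log2 fold changes of 11.86 to 12.82, and their folds were up to 2.56 times as large without CK1_3, when 8 of the 10 were again among the 10 largest. All 10 read 0.51 FPKM or less in every OE library.

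Of the models with the largest fall, Solyc01g009590.3 was the most abundant, at 2273, 2238 and 2203 FPKM in CK1 and 0.29, 0.71 and 0.28 in CK2 (log2 fold change −12.15). Solyc01g086830.3 read 1976, 1953 and 1891 against 0.50, 0.59 and 0.20 FPKM, and Solyc07g053780.3 read 1079, 1011 and 1011 against 0.24, 0 and 0.35. Solyc02g080760.1 read 1258, 1252 and 1223 against 0, 0.18 and 0. All 10 models with the largest fall were listed at 0 in the OE libraries. Fitted folds of this size depend on the pseudocount, since the lower set is near 0. Models with the largest rise or fall needed the set where they are high to pass the filter on low values. Their direction therefore adds no support.

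Some gene models were present in one set and absent or nearly absent in the other. A model was counted as on at 1 FPKM or more in all 3 libraries of a set and as off at 0.1 FPKM or less in all 3 of the other. In CK2 561 models (1.65% of 33989) were on and off in CK1, and 707 when CK1_3 was left out. In CK1 287 models (0.844%) were on and off in CK2. The most abundant in CK2 was Solyc10g046990.2, listed at 0 in every CK1 library and at 199, 213 and 218 FPKM in CK2. Solyc02g087970.1 was listed at 0 in CK1 and at 152, 153 and 161 FPKM in CK2. Solyc03g078260.3 varied more, at 172, 66.8 and 139 FPKM in CK2. The most abundant in CK1 was Solyc11g018570.1, at 1350, 1309 and 1281 FPKM and listed at 0 in CK2. Next came neighbouring loci on chromosome 1, Solyc01g099540.2 (663, 617 and 657 FPKM) and Solyc01g099530.3.1 (562, 548 and 530 FPKM, SL3.0 89625476 to 89632125, minus strand), both listed at 0 in CK2.

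Calls were spread over all chromosomes, with unequal shares. The chromosome was taken from the ID, which matched the position for 7969 of the 7975 models that had both. Chromosome 10 had 17.8% of its tested models higher in CK2 (298 of 1672) and chromosome 12 had 17.3% (282 of 1632), against 13.0% overall. Chromosome 7 had 9.95%, the lowest. After median-ratio scaling these shares were 20.9% on chromosome 10, 19.4% on chromosome 12 and 12.1% on chromosome 7, against 15.3% overall. For lower calls the range was 10.4% on chromosome 12 to 15.6% on chromosome 2, and 7.60% to 11.9% on the same chromosomes after scaling. Models on in CK2 and off in CK1 made up 2.88% of chromosome 10 and 0.792% of chromosome 9, against 1.65% overall. Neighbouring genes are not independent and these shares carry no test.

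**Figure D4:**
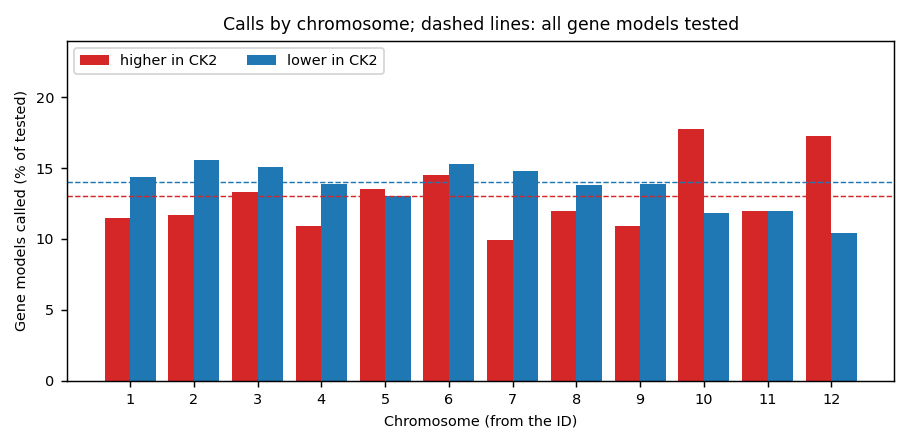
Percent of tested gene models called higher (red) and lower (blue) in CK2 on each chromosome, with dashed lines at 13.0% and 14.0% for all tested models. The red bars of chromosomes 10 and 12 stand above the dashed line, at 17.8 and 17.3%.

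In 207 windows of 100 consecutive tested loci, between 5 and 31 loci were higher in CK2 (median 13). Between 5 and 27 were lower (median 15). The window with most higher loci ran from Solyc10g050840 to Solyc10g055700. Loci called in 1 direction also stood next to each other in the order of tested loci, with untested loci passed over. On chromosome 3, 7 neighbouring loci from Solyc03g031470 to Solyc03g031530 were higher in CK2, with levels that differed greatly among them. Solyc03g031520.3 read 11.9, 16.3 and 14.6 FPKM in CK1 and 1282, 1435 and 1272 in CK2, and Solyc03g031510.3 read 24.2, 25.2 and 25.5 against 763, 871 and 810. Both had CK1 values of the same size in all 3 libraries. In the same run, Solyc03g031480.3, Solyc03g031490.3 and Solyc03g031500.1.1 reached 0.5 FPKM in CK1 at most in CK1_3. They needed CK2 to pass the filter on low values, so their calls add no support. On chromosome 9, in the run from Solyc09g084490 to Solyc09g089540, Solyc09g089510.3.1 read 418, 426 and 434 FPKM in CK1 and 4856, 5417 and 5113 in CK2 (log2 fold change 3.59), among the most abundant transcripts of the CK2 buds.

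The longest run was lower in CK2. It held 9 tested loci from Solyc06g075830 to Solyc06g075960 on chromosome 6. The models of Solyc06g075840, Solyc06g075870, Solyc06g075900, Solyc06g075910, Solyc06g075920 and Solyc06g075950 read 0.06 FPKM or less in every CK2 library. They passed the filter on low values only through CK1, which fixed their direction in advance. Their calls add no support, and the length of the run rests in part on them. Solyc06g075960.1 fell from 913, 791 and 772 FPKM in CK1 to 258, 258 and 267 in CK2, while Solyc06g075870.1 went from 3.94, 5.24 and 3.64 FPKM to 0 in all CK2 libraries. A run of 8 lower loci lay on chromosome 7, from Solyc07g043390 to Solyc07g043500. There Solyc07g043420.3 read 1850, 1819 and 1771 FPKM in CK1 and 469, 484 and 483 in CK2, and Solyc07g043480.1 read 144, 145 and 142 against 19.7, 17.8 and 19.3. Runs were looked for after the values had been seen, and similar neighbours could share reads.

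At 3500 loci both gene models were tested. Neither was called at 2483 loci (70.9%), 1 of them at 593 (16.9%), both in the same direction at 381 (10.9%) and both in opposite directions at 43 (1.23%). The clearest opposite pair was at Solyc02g078380. Solyc02g078380.3 read 0, 0.10 and 0 FPKM in CK1 and 31.6, 31.7 and 33.8 in CK2 (log2 fold change 8.01), and Solyc02g078380.3.1 read 59.5, 61.1 and 68.6 in CK1 and 0.14, 0.34 and 0.21 in CK2 (log2 fold change −7.62). The OE libraries held Solyc02g078380.3 at 68.7, 102 and 58.6 FPKM and Solyc02g078380.3.1 at 0, 0 and 0.07. Solyc04g078090.3 read 0.32, 0.47 and 0.46 against 17.2, 13.9 and 14.3 FPKM, and Solyc04g078090.3.1 read 57.0, 52.9 and 55.1 against 2.39, 1.79 and 2.30. Solyc05g053520.3 was at 3.96, 4.39 and 4.06 FPKM in CK1 and listed at 0 in CK2, and Solyc05g053520.3.1 was at 0.04, 0 and 0.11 in CK1 and 10.6, 11.3 and 10.2 in CK2. Both models of Solyc02g078380 and of Solyc05g053520, and Solyc04g078090.3, passed the filter on low values only through the set where they are high. Their directions were fixed in advance, so these calls add no support. The count of opposite loci includes them. The sources used here do not say how reads were assigned to the models of a locus. A change of transcript and a change of assignment therefore cannot be told apart.

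**Figure D5:**
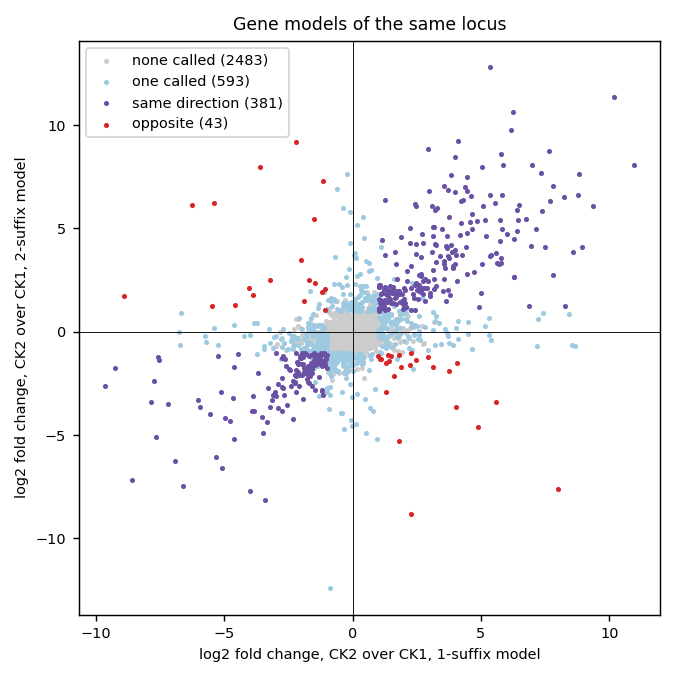
Log2 fold change of the 2 gene models of a locus, with the 1-suffix model on the x axis and the 2-suffix model on the y axis, over 3500 loci. Most points called in both models lie in the quadrants of the same direction (381), and the 43 red points in the other quadrants are loci with opposite calls.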

How the data were processed

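The deposited table holds FPKM values with 2 decimals for each gene model in each library, beside log2 fold changes, p-values and q-values of their own comparisons, which were not used. The submitters' processing notes name RSEM 1.2.12, DESeq2 1.4.5, HISAT2 2.0.4 and Bowtie2 2.2.5 and give no roles. Positions are on build SL3.0 by the chromosome names of the table, while the methods of the study name a later version. No counts or read totals were used, so count tests and counting intervals were not possible.

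Gene models that reached 0.5 FPKM in at least 3 of the 6 control libraries were tested with limma-trend (limma 3.58.1, R 4.3.3) on log2(FPKM + 0.1), and fold changes are on that scale, which understates the change of low genes. A call needed a 2-fold change and a Benjamini-Hochberg adjusted p under 0.05 over all tested models. A model that passed the filter only through the libraries of 1 set was bound to read higher in that set. Such models are included in the counts of calls. A single value compared by exact permutation of 3 against 3 libraries cannot give a p below 0.1, so none is given. In simulated data with 200 changed models among 25268, 83% of those changed by a log2 of 1.5 and 95% of those changed by 2 were called, and 6 of 25068 unchanged ones. The changed models were not drawn from the low ones and were far fewer than the calls made here. These rates therefore do not cover low models.

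The text names WRKY-B, list members (in full where called at a mean of 5 FPKM or more), the 10 higher and 10 lower models with the largest change, the 5 most abundant on/off models and the 5 clearest opposite pairs, each as far as the text has room. Other models were chosen after their values were seen. The members and lists were chosen with earlier results of these data known. Leave-one-out fits kept the models tested with all 6 libraries. No gene ID matched the RefSeq table of names.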

Additional observations from a re-analysis of the deposited data

How the results depend on the processing

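Calls numbered 6943 with log2(FPKM + 0.01), 7444 with no filter, 6134 with a filter at 1 FPKM, 6580 with all 9 libraries in 1 fit and 6022 with the models of a locus summed. Leaving out 1 library gave 6738 to 6879 calls, 3229 to 3295 higher and 3461 to 3650 lower. With log2(FPKM + 1), lower calls fell to 2325. Without the fold threshold there were 17599 calls, 6332 higher and 11267 lower, with 31.5% higher on chromosome 10 and 29.96% on chromosome 12, and 163 loci with opposite calls. With on set at 5 FPKM, 289 models were on in CK2 and 101 in CK1, and with off set at exactly 0, 317 were on in CK2. Leaving out 1 library gave 572 to 707 on in CK2, 302 to 319 on in CK1 and 39 to 44 opposite loci. Of 141 tested models that were listed or named, 11 lost the call and 7 gained one under some alternative, and no called one changed direction. With log2(FPKM + 1), 8 low models lost it, among them Solyc07g066250.1, Solyc02g065730.2, Solyc02g085020.3 and Solyc01g079620.3.1. Summed loci were not run for single models or opposite pairs. With the replicate number as a block, 6822 models were called, 3284 higher and 3538 lower. The deviations of same-numbered libraries correlated at −0.03, 0.01 and −0.01, and those of the other pairs at −0.02 to 0.03. With 3 libraries per set, a plant, harvest or preparation shared by number was not tested. WRKY-B passed with the replicate block (adjusted p = 0.0298). Read totals are not known, so depth limits could not be given.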

Other observations

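The 448 gene models that the authors' pipeline added to the annotation were called more often than the others. Of 390 tested, 104 were higher and 85 lower in CK2 (48.5%), against 28.3% of models with a 1-suffix ID and 23.0% of models with a 2-suffix ID. This share was looked at after the values were seen, and the added models have no locus ID to place them in a marker list.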
